A study of Mus musculus with 10 samples.

Results

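The transcripts of wild type mouse liver after a 6 h fast were compared with those of liver from mice fed ad libitum. The comparison used 5 of the 10 arrays of the series, 3 fasted and 2 fed, and all 13942 genes that passed the filter on dim probe sets, out of 22180 genes with 1 symbol on the array. The mice of all groups were female BALB/cByJ, 3 months old, with a wild type or a knockout Pml gene. Pml encodes the scaffold protein of PML nuclear bodies. Total liver RNA was hybridised to Affymetrix Mouse Gene 2.1 ST arrays, whose probes lie along the exons of a transcript. Feeding was read from the sample titles, because the note on removal of food stands with every sample, the fed ones too. The 2 fed and 3 fasted Pml knockout arrays enter the fit through the spread between replicates, except where knockout values are given. They also counted in the filter and in the choice of the probe set that stands for a gene. Neither the time of day of collection nor whether each array came from a separate animal is given in the sources used here, so the p values reflect how these samples vary, which may be partly technical.

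A fasting liver turns from storing dietary sugar as glycogen and fat to burning fat. Falling insulin releases the transcription factor FOXO1 and withdraws SREBP-1c, which drives fatty acid synthesis. Fatty acids that arrive from adipose tissue activate the nuclear receptor PPAR-alpha, whose targets carry, store and oxidise them and make ketone bodies. Glucagon and glucocorticoids rise over the same hours and act on genes of glucose production. Feeding also sets the time of the liver's circadian clock, so clock genes respond to food as well as to the hour.

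Changes are log2 differences, fasted minus fed, with the standard error (SE) from limma, whose p values were adjusted for all 13942 genes. Intensities are the deposited values on a linear scale, given in the order of the replicates, fed first. With all arrays, 2990 genes were called at an adjusted p under 0.05, which is 21.4% of the genes tested; a gene list with about that share of calls does not stand out from all genes. Of these, 1147 were higher (8.23%) and 1843 lower (13.2%), and 706 changed at least 2-fold, 285 of them up and 421 down. When arrays were centred on the median of the tested genes in place of no centring, 56.8% of 3058 calls were higher, against 38.4% in the fit reported here, so small changes have a direction only relative to the scaling. The median change of all genes was -0.02. The 2 groups did not overlap for 2989 of the called genes, against 52.7% of all genes tested. Without fed replicate 1 the count fell to 1326, and without fed replicate 2 to 1941. Whichever 1 of the 10 arrays was left out, 964 genes kept their call (356 higher and 608 lower), which is 6.91% of the genes tested. A gene named below as changed is one of these 964 unless the omission that ended its call is given. Leaving out 1 fed wild type array leaves 1, which is assumed to vary like the other groups. A call lost there does not show that it rests on the omitted array. If a group stayed at or under the array median (43.5 to 47.5 intensity units) on each of its arrays, only a lower bound of the fold, against that median, is printed.

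**Figure D1:**
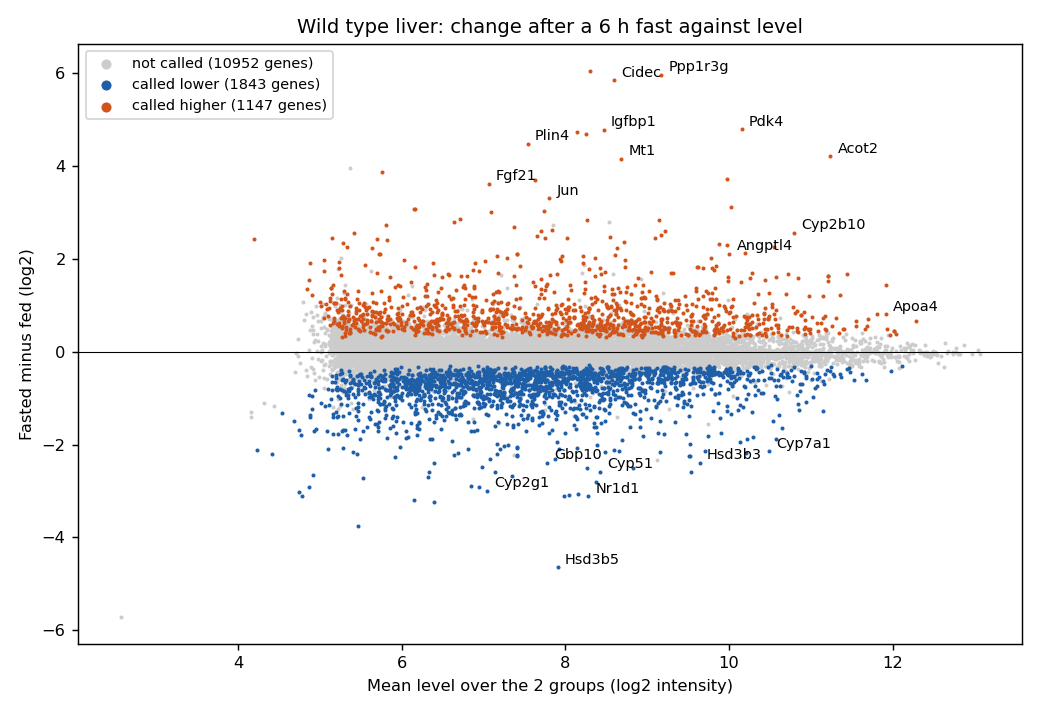
Change after the fast (fasted minus fed, log2, y axis) against the mean level of the 2 wild type groups (log2 intensity, x axis) for 13942 genes, 1 point a gene. Orange points are the 1147 genes called higher, blue points the 1843 called lower and grey points the rest; the widest changes, such as Cidec at 5.84 and Hsd3b5 at -4.64, lie at middle levels.

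Hepatocyte markers were bright in both groups: of 13 measured, 1 was called (Tdo2, a tryptophan enzyme, 0.37) and its call was lost without fed replicate 1, fed replicate 2, fasted replicate 1, fasted replicate 2 or fasted replicate 3 (adjusted p = 0.0634 to 0.135). Albumin (Alb) read 8373 and 8237 in fed and 8394, 8562 and 8723 in fasted liver. Pml itself read 331 and 298 and 211, 181 and 279.7, a change of -0.51 that did not pass the test (SE 0.20, adjusted p = 0.104), though without fasted replicate 3 it was -0.68 and did (adjusted p = 0.0424). Pearson's r across genes, which are not independent replicates, was 0.981 between the fed arrays, 0.982 to 0.986 among the fasted arrays and 0.932 to 0.948 between a fed and a fasted array. Among the knockout arrays, fasted replicates 1 and 2 had clock gene levels like those of fed mice, with values given beside the clock genes. In whole liver, fewer cells of a type and less RNA per cell cannot be told apart. Without those 2 arrays the fit called 2998 genes in wild type, and with the 5 wild type arrays alone it called 2633.

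Transcripts of proteins that coat lipid droplets and of enzymes that release fatty acids from them were in part higher after the fast. Of 18 genes measured, 10 were higher and 0 lower, with a median change of 0.59, and 9 of the 10 kept the call in every omission. Cidec, which enlarges droplets by fusing them, read 59.2 and 44.2 in fed liver and 3038, 2494 and 3344 in fasted liver (log2 change 5.84, SE 0.44, adjusted p = 0.000218). The faintest fasted array was far above the brightest fed one. Plin4, a coat protein, went from 21.7 and 71.7 to 1297, 709 and 732 (log2 change 4.47, SE 0.56, adjusted p = 0.001), and 1 of its fed arrays lay below the array median. Plin5, which tethers droplets to mitochondria, went from 184 and 243 to 1889.8, 1336 and 1359 (log2 change 2.84, SE 0.48, adjusted p = 0.00373). Plin2, the main coat protein of hepatocyte droplets, was already bright in fed liver (1531 and 1274) and rose to 3961, 3874 and 4238 (log2 change 1.53, SE 0.16, adjusted p = 0.000592). Both the lipase and its brakes were among the risers. Pnpla2, the adipose triglyceride lipase, rose by 1.83 (SE 0.15, adjusted p = 0.000251), and its inhibitors G0s2 and Hilpda by 2.46 and 2.67. Fitm2, needed for droplets to bud, rose by 1.82, and Mgll, which cleaves the last fatty acid from glycerol, by 0.82. Abhd5, the coactivator of Pnpla2, changed by 0.11 and hormone-sensitive lipase Lipe by 0.23, neither of which passed the test. Pnpla3, a lipase of the same family that insulin induces, had fed arrays at 15.2 and 246, too far apart to compare (adjusted p = 0.564).

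**Figure D2:**
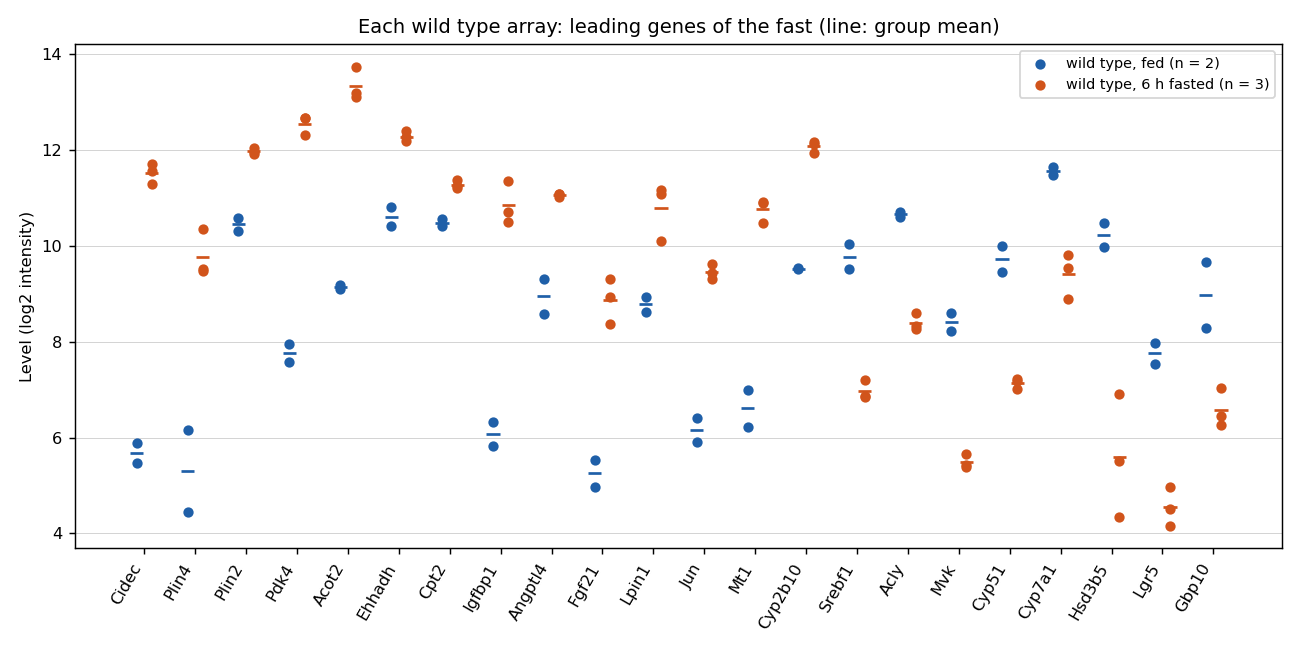
Level of 22 genes (log2 intensity, y axis) on each wild type array: blue points are the 2 fed arrays, orange points the 3 fasted arrays and short lines the group means. In none of these genes do the groups overlap, which also holds for 52.7% of all genes tested. The genes were chosen with their values known, so the lack of overlap is no separate support. Those from Cidec to Cyp2b10 are higher and those from Srebf1 to Gbp10 lower after the fast.

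Acyl-CoA thioesterases, which split fatty acyl-CoA into free fatty acid and coenzyme A, held some of the widest changes. In this family 5 of 11 genes were higher and 0 lower, and all 5 kept the call in every omission. Acot1, the cytosolic form, read 45.02 and 81.3 in fed and 1271, 1528 and 1906 in fasted liver (log2 change 4.68, SE 0.56, adjusted p = 0.000869). Acot2, the mitochondrial form, read 547 and 577 and 8782, 9294 and 13604 (log2 change 4.20, SE 0.35, adjusted p = 0.000251). The peroxisomal forms Acot3 and Acot4 rose by 2.31 and 1.36, and Acot12, which acts on acetyl-CoA, by 0.55. Acot1 to Acot6 are near-identical neighbours in the genome, so a probe set of one may also read its relatives. Acot7, Acot11 and Acot13 changed by 0.19, -0.01 and -0.17, and none of these passed the test.

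Genes of fatty acid oxidation were higher in mitochondria and in peroxisomes. In mitochondria 12 of 20 genes were higher and 0 lower (median 0.44), of which 6 kept the call in every omission; without fed replicate 1 the count was 6. Carnitine carries fatty acids inward, and its importer Slc22a5 went from 259 and 213 to 1185, 1266 and 1373 (log2 change 2.44, SE 0.25, adjusted p = 0.000536). Slc22a5 is not counted among the 20 genes, whose largest change was 1.07. The mitochondrial exchanger Slc25a20 rose by 1.01 and Cpt2, which rebuilds acyl-CoA inside, by 0.79. Cpt1a, the step that limits entry, read 2433 and 2156 and 2826, 3304 and 3548 (log2 change 0.49, SE 0.12, adjusted p = 0.0188), and its call was lost without fed replicate 1, fed replicate 2, fasted replicate 2 or fasted replicate 3 (adjusted p = 0.0503 to 0.118). Along the spiral itself, Hadhb of the trifunctional protein rose by 1.07 and the auxiliary enzymes Decr1 and Eci1 by 0.77 and 0.70. Acadvl, Hadh, Acads and Echs1 lay between -0.29 and 0.28 and did not pass the test.

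Among 18 genes of peroxisomal and omega oxidation, 14 were higher and 0 lower (median 0.54), with 7 that kept the call in every omission and 7 called without fed replicate 1. Pex11a, which divides peroxisomes, read 631 and 747 in fed and 3330.2, 3182 and 3357 in fasted liver (log2 change 2.26, SE 0.16, adjusted p = 0.000218). The bifunctional enzyme Ehhadh went from 1369 and 1786 to 4638, 4942 and 5361 (log2 change 1.67, SE 0.29, adjusted p = 0.00452). Carnitine acetyltransferase Crat rose by 2.11 and the thiolase Acaa1b by 1.54. The omega hydroxylase Cyp4a14, a classical PPAR-alpha target, rose by 1.43 (adjusted p = 0.0308), a call lost without fed replicate 1, fed replicate 2, fasted replicate 1, fasted replicate 2 or fasted replicate 3 (adjusted p = 0.0645 to 0.146). The letters AGGTCA repeated after any 1 base, a strict form of the element that PPAR-alpha reads, stood on neither strand of the promoter windows of 18 mitochondrial oxidation genes, 12 peroxisomal genes or 18 droplet genes, and stood in 0.0457% of 10936 genes with a window. A window runs from 250 bases before to 50 bases after a gene's start in RefSeq (GRCm38.p6).

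**Figure D3:**
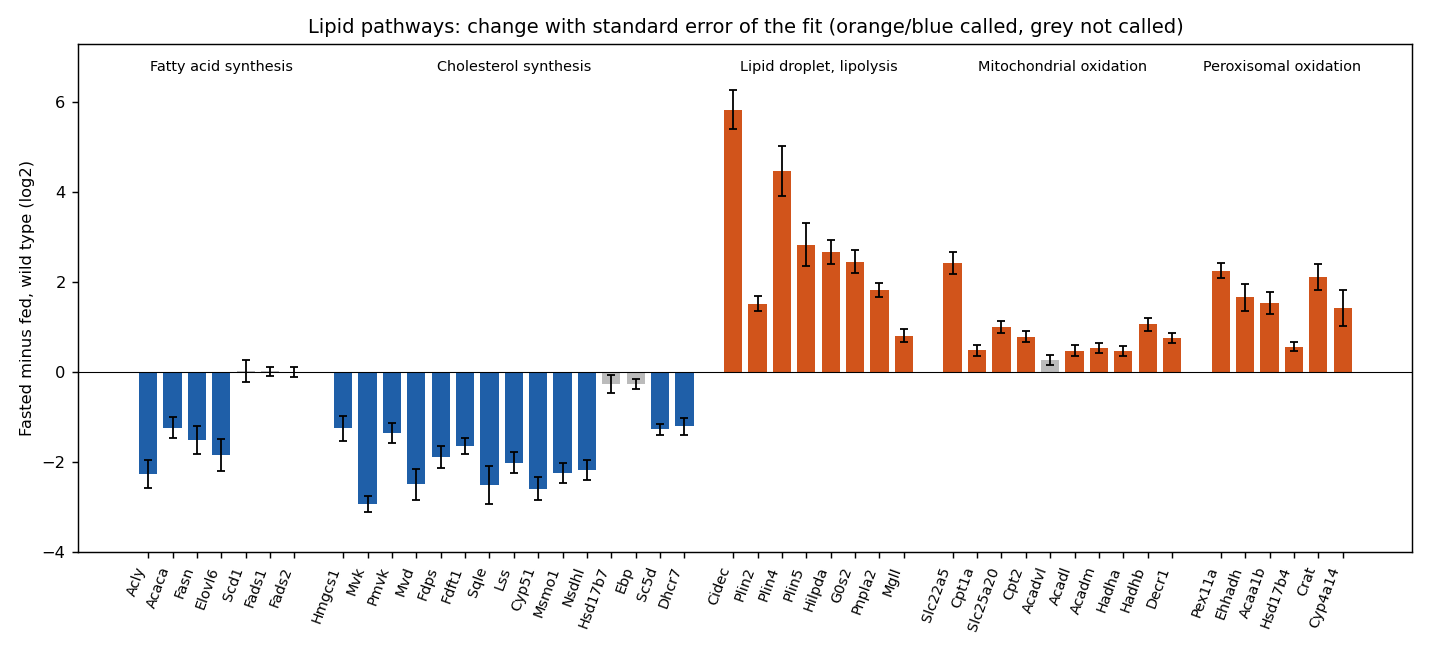
Change after the fast (fasted minus fed, log2, y axis) of genes in 5 lipid pathways, ordered along each pathway, with the standard error of the fit as black bars. Blue bars were called lower, orange bars called higher and grey bars not called. Slc22a5 is drawn with mitochondrial oxidation but is not counted in that gene list. Fatty acid and cholesterol synthesis lie at or below 0 apart from 3 desaturase genes close to 0 (Scd1 0.04, Fads1 0.02, Fads2 0.01), and the droplet and oxidation genes lie above it.

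Genes of ketone body synthesis and export could be followed in part. Of 6 genes measured, 3 were higher and 0 lower (median 0.50). The hormone gene Fgf21, whose values stand with the secreted proteins, was 1 of the 3, and the others were carriers. No enzyme of the list was called. The monocarboxylate carrier Slc16a7 rose by 0.70, and Slc16a1 by 0.96 with a call lost without fed replicate 1, fed replicate 2, fasted replicate 1, fasted replicate 2 or fasted replicate 3 (adjusted p = 0.0752 to 0.166). Bdh1, which reduces acetoacetate, changed by -0.35 (adjusted p = 0.0789) and the thiolase Acat1 by 0.04.

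Among 22 secreted proteins of the liver 4 were higher and 5 lower, with 5 called without fed replicate 1. Igfbp1, which binds insulin-like growth factors and is repressed by insulin through FOXO1, went from 80.2 and 56.8 to 1681, 2623 and 1440.3 (log2 change 4.78, SE 0.37, adjusted p = 0.000218). Fgf21, a hormone that PPAR-alpha induces in fasting, went from 31.3 and 46.6 to 330.1, 489 and 632 (log2 change 3.61, SE 0.43, adjusted p = 0.000779). Angptl4, an inhibitor of lipoprotein lipase, rose from 636 and 383 to 2062, 2172 and 2163 (log2 change 2.11, SE 0.22, adjusted p = 0.000558). Angptl8, which marks the fed state, moved the other way, from 1120.5 and 2954 to 464, 184 and 323 (log2 change -2.59, SE 0.50, adjusted p = 0.00678), with the call lost without fed replicate 2 (adjusted p = 0.0508). Igfals, the acid-labile subunit that keeps growth factor in the blood, fell by 1.06, while Igf1 changed by -0.20 and was not called.

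Transcription factors of the fasting response were higher where they were called. Of 26 factors and coactivators, 9 were higher and 0 lower (median 0.33), and 6 kept the call in every omission. Foxo1 went from 627 and 551 to 1216, 1285 and 1373 (log2 change 1.13, SE 0.13, adjusted p = 0.000779). Cebpb went from 151 and 155 to 630.1, 618 and 486 (log2 change 1.91, SE 0.20, adjusted p = 0.000587) and Lpin1, a phosphatase that also coactivates PPAR-alpha, from 392 and 492 to 2174, 2281 and 1104 (log2 change 2.00, SE 0.30, adjusted p = 0.00216). Cebpd rose at least 2.08-fold and Creb3l3, a membrane-bound factor that drives Fgf21, by 0.52. Ppara rose by 0.63 (adjusted p = 0.0226), a call lost without fed replicate 2 or fasted replicate 3 (adjusted p = 0.155 and 0.0676 in this order). Ppargc1a, the coactivator PGC-1-alpha, overlapped between the groups, with 494 and 375 in fed and 546, 459 and 416 in fasted liver (change 0.13, SE 0.25).

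Some genes of glycogen metabolism and of pyruvate control changed, while few gluconeogenic genes were called. Ppp1r3g, a subunit that directs protein phosphatase 1 to glycogen, went from 85.3 and 62.3 to 3128, 6069 and 4940.2 (log2 change 5.96, SE 0.53, adjusted p = 0.000313). Of 16 glycogen genes it and Gsk3b were higher and 8 were lower (median -0.43), with 5 called without fed replicate 1. Gsk3b, a kinase that inhibits glycogen synthase, lost its call without fed replicate 1, fed replicate 2, fasted replicate 2 or fasted replicate 3 (adjusted p = 0.0587 to 0.091). Lower in every omission were Phka2, a subunit of phosphorylase kinase (612 and 479 to 196, 205 and 215, log2 change -1.40, SE 0.13, adjusted p = 0.000411), Ugp2, which makes UDP-glucose (-1.02), and Pygl, the liver phosphorylase (-0.59). Glycogen synthase Gys2 changed by -0.04 (SE 0.25) and was not called.

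Pdk4, the kinase that shuts pyruvate dehydrogenase and spares glucose, read 192 and 246 in fed and 5055, 6509 and 6516 in fasted liver (log2 change 4.78, SE 0.68, adjusted p = 0.00168). Its relative Pdk1 fell by 0.91, Pdk2 changed by -0.02, and the subunits Pdha1, Pdhb and Dlat were not called. Of 10 genes of pyruvate dehydrogenase and its kinases, 2 were higher and 1 lower (median 0.04). That share, 30%, lies near the 21.4% called among all genes tested. The other higher gene was Pdp2, whose call was lost without fed replicate 1 (change 0.72 in that fit). Gluconeogenesis held 2 calls among 13 genes, Gpd2 (0.56) and Pcx (0.33), both higher. Without fed replicate 1 or fasted replicate 3, limma called 0 of the 13 (3 and 4 at an unadjusted p under 0.05), and 1 with any other array left out except fasted knockout replicate 1. Gpd2 lost its call without fed replicate 1 or fasted replicate 3 (adjusted p = 0.139 and 0.054 in this order), and Pcx in every omission except that of fasted knockout replicate 1 (adjusted p = 0.0523 to 0.202). With all arrays the median of the 13 was 0.07. Pck1, the enzyme that commits carbon to glucose, read 5001 and 4133 in fed and 4908, 4946 and 4724 in fasted liver (log2 change 0.10, SE 0.13, adjusted p = 0.629). G6pc, which releases free glucose, read 3546 and 3124 and 3758, 4098 and 3759 (log2 change 0.22, SE 0.12, adjusted p = 0.221). Both were bright in fed liver already.

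Genes of insulin signalling included 8 higher and 2 lower of 24, with 4 called without fed replicate 1 and 5 without fed replicate 2. Irs2, the receptor substrate that FOXO1 induces, rose from 255 and 127 to 448, 494 and 595 (log2 change 1.498, SE 0.30, adjusted p = 0.00819), with the call lost without fed replicate 2 (adjusted p = 0.0541). Sesn3, a sestrin that restrains mTORC1, fell by 1.41 (adjusted p = 0.00137). Txnip, which lowers glucose uptake, rose by 0.96. Among 18 glycolytic and glucose-responsive genes, Txnip was the 1 gene called higher and 5 were lower. Arrdc4, the arrestin relative of Txnip, fell by 1.15, and Gckr, which holds glucokinase in the nucleus, fell by 0.92. Mlxipl, which encodes the glucose sensor ChREBP, fell by 0.55, a call lost without fed replicate 1, fed replicate 2, fasted replicate 1 or fasted replicate 2 (adjusted p = 0.0727 to 0.148). Pklr, its target, changed by -0.95 and was not called (adjusted p = 0.0639), except without fasted replicate 1, fasted knockout replicate 1 or fasted knockout replicate 3 (adjusted p = 0.0473, 0.0314 and 0.0183 in this order).

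Fatty acid synthesis fell at its first steps, while no desaturase gene was called. Of 19 genes 9 were lower and 1 higher (median -0.76), and 7 of the 9 kept the call in every omission. Srebf1, the gene of SREBP-1c, went from 732 and 1051 to 115, 118 and 147 (log2 change -2.80, SE 0.39, adjusted p = 0.00166). Acly, which makes cytosolic acetyl-CoA from citrate, went from 1552 and 1675 to 390.1, 308 and 319 (log2 change -2.26, SE 0.31, adjusted p = 0.00146). Acaca, the carboxylase that commits acetyl-CoA to fat, fell by 1.23 and Acss2, which activates acetate, fell by 1.44. Fasn, fatty acid synthase, read 1906 and 3258 and 940.0, 765 and 956 (log2 change -1.497, SE 0.31, adjusted p = 0.00943), and Elovl6, the next elongase, fell by 1.83. Both calls were lost without fed replicate 2 (adjusted p = 0.0705 for Fasn and 0.0543 for Elovl6). Mid1ip1, which assembles the carboxylase into its active form, fell at least 5.6-fold. Scd1, the delta-9 desaturase, overlapped at 3199 and 4472 in fed and 3915, 3123 and 4807 in fasted liver (log2 change 0.04, SE 0.25, adjusted p = 0.929). Elovl3, an elongase of very long chains, was the 1 gene called higher (1.16), a call lost without fed replicate 1, fed replicate 2, fasted replicate 1, fasted replicate 2, fasted knockout replicate 1 or fasted knockout replicate 2 (adjusted p = 0.0598 to 0.208).

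Genes that assemble triglyceride were higher where they were called. Of 16 genes of triglyceride and phospholipid assembly, 8 were higher and 0 lower (median 0.37), and 4 kept the call in every omission; the count was 4 without fed replicate 1, 5 without fed replicate 2 and 4 without fasted replicate 2 or fasted replicate 3. Gpat3, which starts glycerolipid synthesis, went from 184 and 153 to 672, 529 and 548 (log2 change 1.79, SE 0.21, adjusted p = 0.000753). The phosphatidate phosphatases Lpin1 and Lpin2 rose by 2.00 and 1.60 and the acyltransferase Gpat4 by 0.95. Dgat2, the last step for newly made fatty acids, and Gpam had changes near 0 and were not called.

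Cholesterol synthesis fell from the mevalonate pathway to the last sterols. In the mevalonate pathway 6 of 7 genes were lower and 0 higher (median -1.34), 5 of them in every omission. In the sterol branch 8 of 11 were lower and 0 higher (median -1.64), all 8 in every omission. Mvk, mevalonate kinase, went from 298 and 388 to 43.04, 41.8 and 50.6 (log2 change -2.92, SE 0.18, adjusted p = 9.23e-05). Cyp51, which demethylates lanosterol, went from 703 and 1014 to 148, 130.1 and 144 (log2 change -2.58, SE 0.25, adjusted p = 0.000453). Sqle, the oxygenase that controls flux after squalene, went from 752 and 1559.6 to 264, 154 and 171 (log2 change -2.51, SE 0.42, adjusted p = 0.00373). Fdps, Fdft1, Lss, Msmo1 and Dhcr7 all fell, with changes from -2.24 to -1.19. Hmgcs1, which makes the substrate of HMG-CoA reductase, fell by 1.25 (adjusted p = 0.0114), and its call was lost without fed replicate 2 (adjusted p = 0.0766). The late enzymes Ebp, Hsd17b7 and Tm7sf2 lay between -0.26 and -0.21 and were not called.

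The control of SREBP moved in 2 directions. Of 16 genes that regulate SREBP or sterol export, 3 were higher and 5 lower, with 4 called without fed replicate 2 and 5 without fasted replicate 2 or fasted replicate 3. Insig1, which holds SREBP in the endoplasmic reticulum and is itself an SREBP target, went from 2295 and 3726 to 855, 880.0 and 659 (log2 change -1.89, SE 0.24, adjusted p = 0.0011). Insig2, which does the same and is induced by fasting, went from 1482 and 1214 to 4161, 4185 and 4080.5 (log2 change 1.63, SE 0.28, adjusted p = 0.00376). Stard4, a sterol carrier, fell by 1.76. Abca1, Abcg5 and Abcg8, which export sterol, were not called. The letters TCACNCCAC, a sterol response element, stood on either strand in the window of 1 of 6 mevalonate genes with a window, Hmgcs1, in 0 of 9 of the sterol branch and in 1.44% of all genes with a window. The stretch around it is shown as an example of the sequence that SREBP-2 is known to bind, with the matched letters in capitals (chr13:119690178-119690257, plus strand, GRCm38.p6, RefSeq).
Hmgcs1: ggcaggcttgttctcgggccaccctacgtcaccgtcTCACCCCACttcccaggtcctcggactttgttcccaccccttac

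The transcript of the rate-limiting enzyme of bile acid synthesis fell. Cyp7a1 went from 2866 and 3181 to 477, 896 and 742 (log2 change -2.15, SE 0.28, adjusted p = 0.00124). Of 23 genes of bile acid synthesis and transport, 2 were higher and 6 lower (median -0.18), with 5 called without fed replicate 1 or fasted replicate 3. Fgfr4, the receptor through which intestinal FGF15 represses Cyp7a1, fell by 1.09, and Akr1d1, a reductase of the sterol ring, fell by 0.61. Abcb4, which secretes phospholipid into bile, rose by 0.84 and the basolateral exporter Abcc3 by 0.69. Cyp8b1, which sets the share of cholic acid, changed by 0.72 and was not called (adjusted p = 0.0678, and 0.0424 without either fed knockout array). Of 18 lipoprotein genes 2 were higher and 0 lower, and 1 was called without fed replicate 1 or fasted replicate 3. Apoa4, which fasting induces in liver, went from 2805 and 3038 to 4857, 4942 and 5510.3 (log2 change 0.80, SE 0.13, adjusted p = 0.00328), and Mttp, which loads lipid onto apolipoprotein B, rose by 0.49 with its call lost without fed replicate 1 or fasted replicate 3 (adjusted p = 0.121 and 0.0519 in this order). Of 15 genes of fatty acid uptake and binding 3 were higher and 1 lower. The binding protein Fabp5 was the 1 lower, from 571 and 443 to 125, 148 and 88.9 (log2 change -2.09, SE 0.31, adjusted p = 0.0021). Fabp1, the main binding protein of liver, changed by 0.19 and the transporter Cd36 by 0.62, and neither was called, except Cd36 without fed replicate 2 (adjusted p = 0.0457).

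Steroid enzymes were among the deepest falls. Hsd3b5, a hydroxysteroid dehydrogenase best known from male liver, read 1424 and 1014 in fed and 45.5, 119.7 and 20.4 in fasted liver (log2 change -4.64, SE 0.72, adjusted p = 0.0025). Its relatives Hsd3b2 and Hsd3b3 also fell, with changes of -3.09 and -2.40, and as near-identical copies they may share probes. Akr1c6, which reduces oestrone, fell by 1.98. Of 23 genes of steroid metabolism and the growth hormone axis 1 was higher and 8 lower (median -0.31), 7 of the 8 in every omission. The growth hormone receptor Ghr fell by 0.59 and Bcl6, a repressor that antagonises STAT5, fell by 0.98. Socs2 and Cish, feedback genes of STAT5, changed by 0.93 and 0.40 and were not called.

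Some Wnt targets of the pericentral zone fell. Hepatocytes next to the central vein receive Wnt signals and express glutamine synthetase, while those near the portal vein make urea and glucose. Lgr5, the R-spondin receptor, read 251 and 186 in fed liver and 22.96, 31.4 and 17.95 in fasted liver, at least 4.68-fold lower (adjusted p = 0.000876). Rnf43, a ligase that removes Wnt receptors, fell by 1.46 and the cytochrome Cyp2g1 fell by 2.99. Glutamine synthetase Glul, Axin2 and Cyp2e1, from the same zone, changed by 0.22, 0.36 and 0.07, and none was called. In all, 6 of 22 pericentral genes were lower and 0 higher (median -0.18), and 1 of 15 periportal genes was higher and 3 lower (median -0.14). These shares, 27.3% and 26.7%, lie near the 21.4% called among all genes tested.

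In retinoid metabolism 1 of 21 genes was higher and 3 lower. Cyp26a1, which degrades retinoic acid and is induced by it, read 162 and 164 in fed and 8.43, 22.7 and 9.03 in fasted liver, at least 3.53-fold lower (adjusted p = 0.00404). The reductase Rdh11 fell by 1.76, and Lrat, which esterifies retinol for storage in stellate cells, fell by 1.04. Drug metabolism moved at single genes. Cyp2b10, the classical target of the nuclear receptor CAR, had the smallest p of all genes, with 728 and 743 in fed and 3902, 4439 and 4622 in fasted liver (log2 change 2.55, SE 0.11, adjusted p = 9.95e-06). Nr1i2, the related receptor PXR, rose by 0.90, and Nr1i3, which encodes CAR, changed by 0.39 and was not called. Over 36 xenobiotic cytochromes and receptors 5 were higher and 4 lower (median 0.01), with 3 called without fed replicate 1. Of 29 conjugation enzymes 1 was higher and 6 lower (median -0.19), with 3 called without fed replicate 1 and 4 without fasted replicate 3. The sulfotransferase Sult1b1 fell by 1.45 and the glutathione transferase Gstm4 fell by 1.13.

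**Figure D4:**
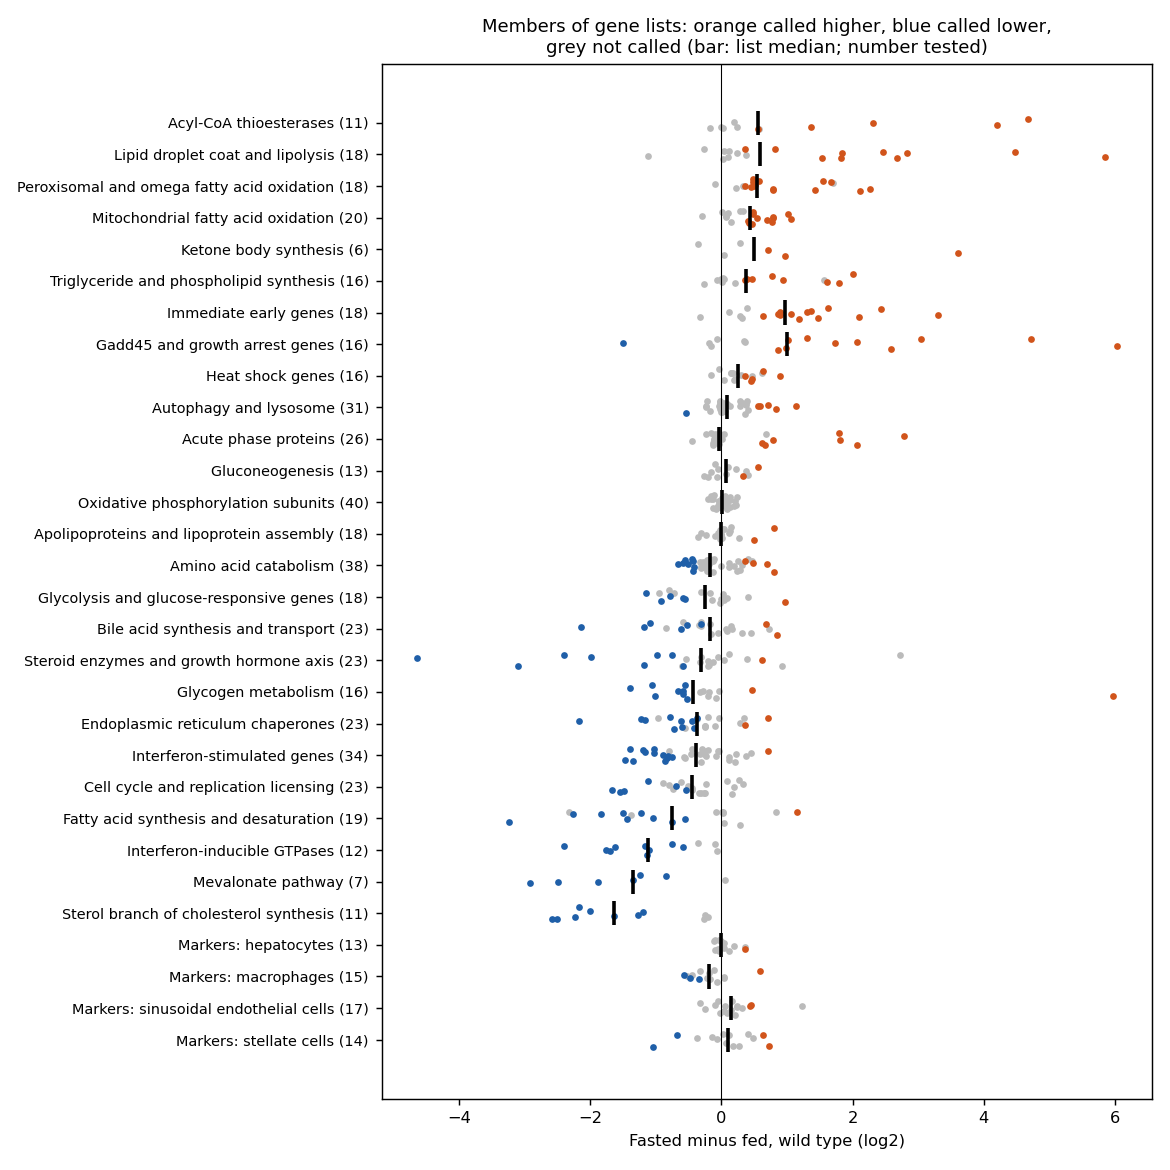
Change after the fast (fasted minus fed, log2, x axis) for the members of 30 gene lists, 1 point a gene, with the number of genes tested after each name and a black bar at the list median. Orange points were called higher, blue called lower and grey not called. Thioesterases, droplet genes and immediate early genes lie mostly to the right, cholesterol synthesis and interferon-inducible GTPases to the left, and oxidative phosphorylation close to 0.

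In nitrogen metabolism few calls held when an array was left out. Of 38 genes of amino acid breakdown 4 were higher and 8 lower (median -0.17); 1 was called without fed replicate 1, 5 without fed replicate 2 or fasted replicate 2, and 7 without fasted replicate 3. Shmt1, a folate enzyme that splits serine, kept its call and fell from 1308 and 1284 to 852, 885 and 923 (log2 change -0.55, SE 0.10, adjusted p = 0.00508). Tat, a tyrosine enzyme that glucocorticoids induce, changed by 0.19 and was not called. In the urea cycle 1 of 9 genes was higher and 2 lower; limma called 0 without fed replicate 1 or fed replicate 2 (2 and 3 at an unadjusted p under 0.05) and 1 without fasted replicate 2 or fasted replicate 3. Ass1, the enzyme that joins citrulline and aspartate, read 483 and 511 and 235, 206 and 136 (log2 change -1.41, SE 0.37, adjusted p = 0.0234), a call lost without fed replicate 1, fed replicate 2 or fasted replicate 3 (adjusted p = 0.101, 0.0967 and 0.0713 in this order). Cps1 and Otc, the mitochondrial steps, changed by -0.01 and -0.20. Of 15 genes of the methionine cycle and methyl transfer 0 were higher and 3 lower, and limma called 0 of them without fed replicate 1, fed replicate 2, fasted replicate 2 or fasted replicate 3 (2, 4, 5 and 5 at an unadjusted p under 0.05).

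No subunit of the respiratory chain passed the test. Of 40 subunits of oxidative phosphorylation, limma called 0, with a median of 0.01 and a range from -0.21 (Ndufs8) to 0.24 (Cox7c). Of the same 40, 0 had an unadjusted p under 0.05. Carriers of the inner mitochondrial membrane, in contrast, changed in both directions, 9 of 31 higher and 8 lower, with 10 called without fed replicate 2. Slc25a30 went from 578 and 360.2 to 1736, 2820.2 and 2283 (log2 change 2.29, SE 0.30, adjusted p = 0.0012), and the liver-specific carrier Slc25a47 and the coenzyme A carrier Slc25a42 each rose by 1.23. Slc25a35 fell by 2.06, and the citrate carrier Slc25a1, which feeds fatty acid synthesis, fell by 0.55.

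Immediate early genes, transcribed within minutes of a stimulus, were higher after the fast: 13 of 18, with 0 lower (median 0.98) and 8 in every omission. Jun, a subunit of AP-1, went from 60.05 and 84.4 to 695, 635 and 786 (log2 change 3.30, SE 0.24, adjusted p = 0.000218). Ccn2, a matricellular protein, went from 78.8 and 85.5 to 329.7, 305 and 429 (log2 change 2.09, SE 0.26, adjusted p = 0.00103). The phosphatase Dusp1 rose by 1.19, the AP-1 subunit Fosl2 by 1.63 and the antiproliferative gene Btg2 by 1.31. Egr1 rose at least 2.67-fold, with fasted arrays spread over 302, 64.1 and 88.99, and its call was lost without fed replicate 1 or fed replicate 2 (adjusted p = 0.0818 and 0.111 in this order).

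Growth arrest and stress genes also changed widely, with 10 of 16 higher and 1 lower (median 1.00), 5 of the 10 in every omission; 7 were called without fed replicate 1 or fed replicate 2. Cdkn1a, the cell cycle inhibitor p21, read 35.04 and 43.7 in fed and 2515, 2501 and 2679 in fasted liver. It was at least 57.1-fold higher (adjusted p = 0.0116), with its call lost without fed replicate 1, which leaves 1 fed array. The adjusted p was 2.83e-05 with the 5 wild type arrays alone and 0.000368 without fasted knockout replicate 3. Gadd45b, a stress sensor upstream of p38, went from 43.3 and 70.4 to 1527, 1578 and 1284 (log2 change 4.72, SE 0.42, adjusted p = 0.000313). Fkbp5, a glucocorticoid receptor target, went from 93.4 and 77.4 to 578, 519 and 444 (log2 change 2.59, SE 0.23, adjusted p = 0.000318). Zbtb16, another target of that receptor, rose by 1.72, while Tsc22d3, which the same hormone induces, overlapped between the groups (-0.20). Of 22 targets of p53, Cdkn1a included, 6 were higher and 2 lower (median 0.13), with 5 called without fed replicate 1 or fed replicate 2. Plk3, Btg2 and Trp53inp1 rose by 1.69, 1.31 and 1.25, Ccng1 fell by 0.80, and Mdm2, the feedback ligase of p53, changed by 0.38 with a call lost without fed replicate 1, fed replicate 2, fed knockout replicate 1, fed knockout replicate 2, fasted replicate 1, fasted replicate 2, fasted replicate 3 or fasted knockout replicate 2 (adjusted p = 0.0565 to 0.176). Fas, Zmat3, Aen and Phlda3 were not called.

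Metallothioneins, small proteins that bind zinc and copper, rose. Mt1 went from 74.6 and 128 to 1923, 1912 and 1422 (log2 change 4.15, SE 0.32, adjusted p = 0.000218) and Mt2 from 178 and 432 to 3861, 3842 and 3214 (log2 change 3.71, SE 0.52, adjusted p = 0.00166). The zinc importers Slc39a14 and Slc39a4 and the sensor Mtf1, in a list of 7 genes with 2 higher and 0 lower, were not called, except Slc39a4 without fed replicate 2 (adjusted p = 0.0432). The letters TGCGCNC, the core of the metal response element, stood in the windows of both Mt1 and Mt2 and in 27.3% of all genes with a window. Of 25 NRF2 targets and antioxidant enzymes 2 were higher and 1 lower (median -0.04), and limma called 0 without fed replicate 1 or fasted replicate 3 (1 and 5 at an unadjusted p under 0.05) and 1 without fed replicate 2 or fasted replicate 2.

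Chaperone genes of the secretory pathway were lower in part. In the endoplasmic reticulum 10 of 23 genes were lower and 2 higher (median -0.38), with 7 called without fed replicate 2, fasted replicate 2 or fasted replicate 3. Sdf2l1, a cochaperone, went from 1008 and 1437 to 355, 307 and 179 (log2 change -2.16, SE 0.26, adjusted p = 0.000853). Manf fell by 1.23, the lectin chaperone Calr fell by 0.62 and the disulfide isomerase Pdia3 fell by 0.59. Hspa5, the central chaperone BiP, changed by -0.56 (adjusted p = 0.0649) and was called only without fed replicate 1 (-0.88, adjusted p = 0.0202). Heat shock genes of the cytosol and mitochondria leaned up, with 5 of 16 higher and 0 lower, and none of these calls held in every omission; limma called 0 without fed replicate 1 (4 at an unadjusted p under 0.05), 3 without fed replicate 2 or fasted replicate 1 and 2 without fasted replicate 2 or fasted replicate 3. Of 20 genes of the integrated stress response 5 were higher and 0 lower, with 3 called without any 1 fed array of either genotype and 2 without any 1 fasted wild type array. Ppp1r15a, which restores translation, rose by 1.32, and Atf4 and its targets Ddit3 and Trib3 were not called. Of 31 autophagy and lysosome genes 5 were higher and 1 lower, with 3 called without fed replicate 2, fasted replicate 2 or fasted replicate 3. Bnip3, a receptor for mitophagy, went from 746 and 681 to 1572, 1655 and 1488 (log2 change 1.14, SE 0.11, adjusted p = 0.000386) and Map1lc3b, the LC3 coat of autophagosomes, rose by 0.71.

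Interferon-inducible genes were lower in fasted liver. Guanylate-binding proteins and immunity-related GTPases, which interferon-gamma induces and which attack the vacuoles of pathogens, fell in 9 of 12 genes with 0 higher (median -1.11). In this family 4 calls held in every omission, and 4 were made without fed replicate 1. Gbp10 went from 815 and 312 to 87.5, 76.8 and 132 (log2 change -2.39, SE 0.35, adjusted p = 0.00185). Gbp7 went from 520.4 and 325 to 114, 109 and 168 (log2 change -1.69, SE 0.22, adjusted p = 0.00123) and Igtp from 651 and 521 to 185, 141 and 259 (log2 change -1.62, SE 0.24, adjusted p = 0.00195). In Gbp10 and Gbp7 the first fed array was brighter than the second, and both were above every fasted array. Gbp3 fell by 1.10, a call lost without fed replicate 1 (adjusted p = 0.0519), and Irgm2 fell by 1.13, a call lost without fed replicate 1 or fasted replicate 2 (adjusted p = 0.152 and 0.0564 in this order). Genes of this family are close copies and may share probes.

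The window of all 5 GTPases that have one (Gbp3, Gbp7, Igtp, Irgm1 and Irgm2) held the letters GAAA, any 2 bases and GAAA on either strand, a form of the interferon response element, against 3.74% of all genes with a window. The stretches printed show where it stands in 4 of them, with the matched letters in capitals; a match is a description of the sequence, not a measured binding site. In Gbp7 and Gbp3 the match lies on the opposite strand and is printed as its reverse complement. All are on the plus strand of GRCm38.p6, at chr3:142530248-142530327, chr3:142559964-142560043, chr11:58199476-58199555 and chr11:58214878-58214957 in the order printed.
Gbp7: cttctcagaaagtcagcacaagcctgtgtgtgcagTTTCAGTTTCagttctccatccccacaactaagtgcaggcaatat
Gbp3: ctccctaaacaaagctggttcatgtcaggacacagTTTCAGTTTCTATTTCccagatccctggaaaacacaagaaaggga
Igtp: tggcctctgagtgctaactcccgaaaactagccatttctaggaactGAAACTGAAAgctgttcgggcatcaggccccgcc
Irgm2: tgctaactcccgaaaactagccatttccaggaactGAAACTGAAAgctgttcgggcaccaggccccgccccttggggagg

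Other interferon-stimulated genes leaned the same way. Of 34 measured, 12 were lower and 1 higher (median -0.39), with 4 lower in every omission, 4 called without fed replicate 1 and 8 without fasted replicate 2. The same element stood in the window of 11 of 25 of them (44%). Ddx58, the RNA sensor RIG-I, went from 783 and 693 to 315, 235 and 324 (log2 change -1.35, SE 0.18, adjusted p = 0.00125). Ifih1, the sensor MDA5, fell by 1.17, the transcription factor Irf1 fell by 1.40 and the ADP-ribosyltransferase Parp12 fell by 0.85. Oas2, Bst2, Usp18 and Rsad2, classical targets of type I interferon, changed by -0.08, -0.06, 0.11 and 0.38 and were not called. In antigen presentation 4 of 17 genes were lower and 0 higher, with 1 called without fed replicate 1. Tapbpl, a peptide editor, fell by 0.94, and Psmb9 of the immunoproteasome fell at least 2.79-fold with its call lost without fed replicate 1 (adjusted p = 0.0703). Macrophage markers lay slightly lower in the same arrays, with 3 of 15 lower and 1 higher (median -0.19) and a summed intensity of 6476 to 8046 in fed and 5958 to 6500 in fasted liver. Without fed replicate 1 limma called 0 of these markers (4 at an unadjusted p under 0.05), and without fasted replicate 2 it called 2. Adgre1, the antigen F4/80, fell by 0.57, a call lost without fed replicate 1 (adjusted p = 0.0604), and the Kupffer cell marker Clec4f changed by 0.04. Of 14 T and NK cell markers 5 passed the filter and limma called 0 (0 at an unadjusted p under 0.05), with a summed intensity of 289.8 to 301.1 in fed and 279.9 to 376.2 in fasted liver. The part of these cells in the interferon genes was not tested.

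Genes of inflammation moved separately. Of 26 acute phase genes 7 were higher and 0 lower (median -0.04), of which 4 kept the call in every omission. That share, 26.9%, lies near the 21.4% called among all genes tested. Lcn2 was called higher but lost its call without fed replicate 1 or fed replicate 2. Orm3 lost its call without fed replicate 1 or any 1 fasted wild type array, and Lbp without fed replicate 2 or any 1 fasted wild type array. Cd14, the endotoxin coreceptor, read 36.9 and 39.4 in fed and 391, 193 and 240.0 in fasted liver, at least 5.84-fold higher (adjusted p = 0.0004). Il1r1, the interleukin-1 receptor, went from 557 and 403 to 1828, 1845 and 1343 (log2 change 1.81, SE 0.27, adjusted p = 0.0022), and haptoglobin Hp rose by 0.66. Fibrinogen genes Fga, Fgb and Fgg, Crp and Saa2 lay between -0.13 and -0.03 and were not called. Among 20 genes of interleukin-1, NF-kB and innate sensing 6 were higher and 2 lower, with 4 called without fed replicate 2. The cytokine gene Il1b was at least 2.87-fold higher (adjusted p = 0.001), its antagonist Il1rn rose by 1.91, while Tlr3, a sensor of double-stranded RNA, fell by 0.96. Neutrophil markers, of which 2 of 11 passed the filter, were not called by limma (0 at an unadjusted p under 0.05).

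Adult liver holds few dividing cells. Of 23 cell cycle genes 6 were lower and 0 higher (median -0.45), with 3 called without fed replicate 1. Mcm4, of the replicative helicase, read 108 and 96.01 in fed and 41.3, 30.5 and 38.4 in fasted liver, at least 2.21-fold lower (adjusted p = 0.00195). Gins1 fell at least 1.2-fold and Mcm5 at least 1.89-fold, the latter with its call lost without fed replicate 1 or fasted replicate 3 (adjusted p = 0.159 and 0.0589 in this order). Mki67, Cdk1 and Ccna2, markers of later phases, changed by -0.51, -0.89 and -0.34 and were not called, except Cdk1 without fasted replicate 1 (adjusted p = 0.0444). Of 15 targets of YAP and matricellular genes 1 was higher (Ccn2) and 1 lower (Nuak2, -1.26). Of 30 nuclear receptors 4 were higher and 4 lower, with 4 called without fed replicate 1 or fed replicate 2. Markers of endothelial cells (17 measured, 2 called), stellate cells (14, 4 called), cholangiocytes (7, 1 called) and adipocytes (6, 0 called by limma and 2 at an unadjusted p under 0.05) had summed intensities of 10660 to 11870 and 11100 to 12380, 7859 to 7914 and 8419 to 9123, 426.6 to 445.9 and 555.2 to 762.5, and 7712 to 7813 and 6110 to 6980, fed before fasted. Without fed replicate 2 limma called 0 endothelial markers (4 at an unadjusted p under 0.05), and 1 without any 1 other wild type array. It called 2 stellate markers without fed replicate 1, fed replicate 2, fasted replicate 1 or fasted replicate 2.

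Circadian clock genes also separated the 2 groups. The clock runs as a loop in which BMAL1 (Arntl) with CLOCK or NPAS2 switches on Per, Cry, Nr1d1 and Dbp, and NR1D1 in turn represses Arntl. Nr1d1 went from 1174 and 714 in fed to 123, 91.2 and 105 in fasted liver (log2 change -3.12, SE 0.41, adjusted p = 0.00132). Cry1 went from 29.9 and 50.3 to 325, 277 and 250.2 (log2 change 2.86, SE 0.37, adjusted p = 0.00124). Dbp, a transcription factor at the clock's output, went from 723 and 766 to 67.1, 95.4 and 99.9 (log2 change -3.11, SE 0.96, adjusted p = 0.0455), and Npas2 from 61.8 and 49.1 to 1063, 439 and 779.7 (log2 change 3.70, SE 1.15, adjusted p = 0.0476). Both last calls were lost without any 1 wild type array and without either fed knockout array, and the call of Npas2 also without fasted knockout replicate 2; adjusted p lay between 0.0634 and 0.159 for Dbp and between 0.0578 and 0.157 for Npas2. With the 5 wild type arrays alone the adjusted p of Npas2 was 0.00253. Arntl read 180.5 and 137 and 625, 525 and 572 with no overlap. Its change of 1.86 had an SE of 1.04 and was not called (adjusted p = 0.237). Without fasted knockout replicate 3 the adjusted p of Arntl was 0.000256. Per1 rose by 0.98, and Per3 changed by -2.21 and was not called (adjusted p = 0.0573, and 0.000236 without fasted knockout replicate 3). E2f8, a cell cycle repressor counted with the activators and evening partners, rose by 2.82. Hlf overlapped between the groups (0.15). Of 7 activators and evening partners 4 were higher and 0 lower, with 2 called without fed replicate 1 or fed replicate 2 and 7 without fasted knockout replicate 3. Of 14 repressors and outputs 1 was higher and 3 lower, with 2 called without fed replicate 1, fed replicate 2 or fasted replicate 1 and 7 without fasted knockout replicate 3.

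A clock score, the mean log2 intensity of Arntl, Clock, Npas2 and Cry1 minus that of Nr1d1, Nr1d2, Per3, Dbp, Tef and Hlf, was -1.94 and -1.95 in fed wild type and 2.53, 1.82 and 1.99 in fasted wild type. The difference was 4.06, and an exact permutation test over the 10 divisions of 5 arrays gave a two-sided p of 0.2, the smallest it can give. In knockout the score was -2.83 and -2.92 in fed liver and -3.36, -2.96 and 1.60 in fasted replicates 1, 2 and 3, so the first 2 of these fasted arrays had clock genes like fed liver. These genes were chosen with their values known. With the score as a covariate, 502 genes were called (3.60%), of which 441 were also called without it. The slope on the score rests on fasted knockout liver, which holds 98.2% of the score's sum of squares within groups. Fasting and clock phase cannot be told apart in wild type alone. In the covariate fit 8 genes of the sterol branch, 5 of the mevalonate pathway, 7 of the droplet list, 7 immediate early genes and 4 thioesterases were called, while limma called 0 of 20 mitochondrial oxidation genes (8 at an unadjusted p under 0.05). Cidec changed by 4.90 in that fit (adjusted p = 0.00987), Pdk4 by 3.11 (adjusted p = 0.0592) and Cdkn1a by 1.73 (adjusted p = 0.234).

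**Figure D5:**
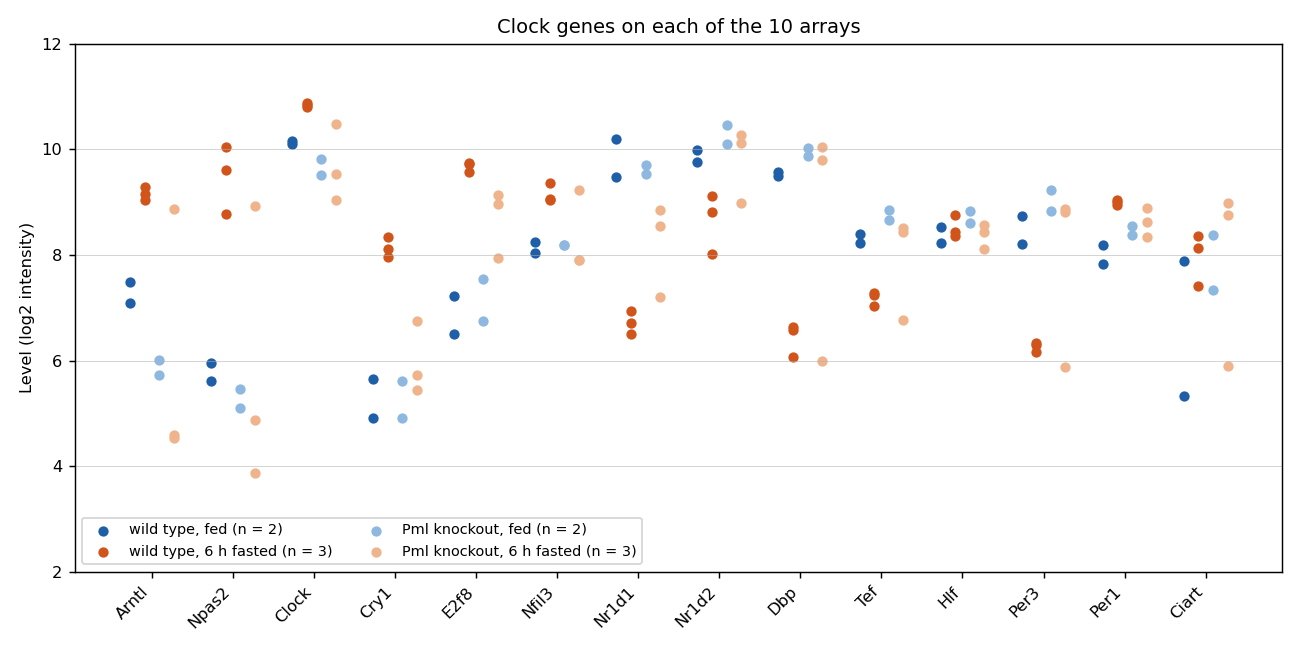
Level of 14 clock genes (log2 intensity, y axis) on each of the 10 arrays: dark blue for fed and dark orange for fasted wild type, light blue for fed and light orange for fasted Pml knockout. In Arntl, Npas2 and Dbp, 2 of the 3 light orange points lie with the fed arrays and 1 with the fasted wild type arrays.

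The E-box CACGTG, to which CLOCK and BMAL1 bind, stood in the windows of 5 of 12 clock repressors and outputs (41.7%). It stood in those of 1 of 7 activators and evening partners, Cry1, and of 11% of all genes with a window. The matched repressors and outputs were Bhlhe41, Ciart, Per1, Tef and Tspan4. A match does not mark a direction. Tef was not called with all arrays, and changed by -1.13 without fasted knockout replicate 3 (adjusted p = 0.000839). Cry1 and Per1, which both rose, are shown as examples with the E-box in capitals. Cry1 is on the minus strand at chr10:85185072-85185151 and Per1 on the plus strand at chr11:69098746-69098825 (GRCm38.p6, RefSeq). The letters TAGGTCA, an element read by ROR and NR1D1 proteins, were sought on either strand. They stood in 2 of 7 activators and evening partners, Arntl and Nfil3, and in 2.72% of all genes with a window.
Cry1: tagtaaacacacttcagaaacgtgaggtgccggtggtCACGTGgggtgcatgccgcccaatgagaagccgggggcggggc
Per1: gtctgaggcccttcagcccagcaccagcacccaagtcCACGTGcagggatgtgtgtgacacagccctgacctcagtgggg

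Several of the widest changes lay outside these groups. Vnn1, a pantetheinase and PPAR-alpha target, went from 274 and 457 to 2383, 3341 and 3619 (log2 change 3.11, SE 0.36, adjusted p = 0.000716). Rgs1, a regulator of G protein signals known from lymphocytes, rose at least 4.61-fold and the phosphatase Dusp8 at least 4.63-fold. Lepr, the leptin receptor, rose at least 4.59-fold with its call lost without fed replicate 1 (adjusted p = 0.094). Pctp, which carries phosphatidylcholine, went from 188 and 309.8 to 1676, 1275 and 1478 (log2 change 2.60, SE 0.24, adjusted p = 0.000352), and the carrier Slc16a13 rose by 2.63. Of genes with a standard symbol, those with the smallest p among the higher, after Cyp2b10, were Atp10d, a phospholipid flippase (116 and 126 to 341, 323 and 307, log2 change 1.42, SE 0.10, adjusted p = 0.000184), and Pex11a. Tacc2 and Dnmbp, which act at centrosomes and cell junctions, rose by 2.01 and 1.69.

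Among the lower genes, Neb, which encodes the giant muscle protein nebulin, went from 449.6 and 265 to 62.2, 55.3 and 55.1 (log2 change -2.59, SE 0.24, adjusted p = 0.000352). Cyp2r1, a vitamin D 25-hydroxylase, went from 444 and 383 to 82.6, 57.5 and 56.9 (log2 change -2.67, SE 0.18, adjusted p = 0.00017), and Dnph1, a nucleotide hydrolase, from 584 and 464 to 111, 90.95 and 116 (log2 change -2.30, SE 0.18, adjusted p = 0.000218). Tert, the catalytic subunit of telomerase, fell at least 4.15-fold, Prok1 at least 4.38-fold and Igfbp5 at least 2.56-fold. The chemokine Cxcl11, an interferon-gamma target, fell by 2.31 and the apolipoprotein relative Apol7a fell by 2.49. S1pr1, a receptor for sphingosine 1-phosphate, fell by 1.32. Mmab, which works on vitamin B12 and shares its promoter region with Mvk, fell by 1.98. Of the called genes, 221 carry predicted, numbered, microRNA or similar symbols and are only counted.

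In Pml knockout liver the same fast gave 234 calls (1.68%), of which 151 were also called in wild type. The difference between the genotypes' changes was called for 294 genes (2.11%), 276 of them among the wild type calls. This count moved with most arrays: it was 13 or 2 without fed knockout replicate 1 or 2, 40 to 60 without any 1 fasted wild type array, 83 or 120 without fed wild type replicate 1 or 2, and 52, 246 or 360 without fasted knockout replicate 1, 2 or 3. Without both fasted knockout replicates 1 and 2, limma called 0, with 2561 genes at an unadjusted p under 0.05. That fit leaves 1 fasted knockout array, as leaving out 1 fed array leaves 1 in its group. The single array is assumed to vary like the other groups. The fit therefore does not show whether the differences depend on fasted knockout replicates 1 and 2. Clock scores were -3.36 and -2.96 in these arrays, 1.60 in fasted knockout replicate 3, and -2.83 and -2.92 in fed knockout liver. With the score as a covariate, whose slope rests on fasted knockout liver, the difference was called for 21 genes. Whether genotype, or the clock or feeding state of fasted knockout replicates 1 and 2, lies behind the differences was not tested. Lgr5 changed by -3.20 in wild type and 0.19 in knockout (adjusted p of the difference 0.0278, and 0.0996 without those 2 arrays). Cyp7a1 changed by -2.15 and 1.42 in the same order (adjusted p of the difference 0.017, and 0.065 without them). Ppp1r3g changed by 5.96 and 0.15 (adjusted p of the difference 0.0221, and 0.065 without them). For Sdf2l1 the changes were -2.16 and -1.99, with an adjusted p of the difference of 0.832.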

How the data were processed

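Liver RNA of 10 samples was hybridised to Affymetrix Mouse Gene 2.1 ST arrays. The authors deposited 1 table of normalized intensity values on a linear scale, made with RMA in Affymetrix Expression Console per the submitters' processing notes; for versions and build, not given in the sources used here. Values were used as log2 of the deposited intensity, with no further scaling. Of 41345 probe sets, 23521 had 1 gene symbol, 1814 several and 16010 none. Probe sets above the 50th percentile of an array on at least 2 arrays were kept (14617), and the brightest stood for its gene (13942 genes; 519 had more than 1 kept). limma 3.58.1 (R 4.3.3) was fitted to 4 group means over all 10 arrays with Benjamini-Hochberg adjustment, and genes were called at an adjusted p under 0.05. It was tested on simulated data. The array number limits the precision.

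The members and the 61 gene lists were chosen with earlier results of these data known. Besides list members, genes named were among the 30 largest changes and 15 smallest p per direction and the 10 brightest called genes. Alternatives were other scalings, filters, probe set rules, moderation and weights, array omissions, wild type alone, a replicate block and a clock covariate.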

Additional observations from a re-analysis of the deposited data

Results flagged for a closer look

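For 55 genes named in the report, the change with the fast in Pml knockout liver differed from that in wild type by the interaction test of limma (adjusted p under 0.05). Values are the change in knockout minus the change in wild type on the log2 scale. The difference was below 0 for Acaa1b -1.65, Acot2 -2.52, Acot3 -1.86, Angptl4 -2.02, Atp10d -1.11, Bnip3 -0.76, Ccn2 -2.15, Cebpb -1.45, Cyp2b10 -1.28, Dnmbp -1.82, Fkbp5 -1.64, Foxo1 -1.25, Gpat3 -1.37, Hilpda -1.98, Igfbp1 -3.25, Il1rn -1.96, Jun -1.70, Lpin1 -1.98, Lpin2 -1.76, Nr1i2 -0.81, Pctp -2.05, Pex11a -1.40, Pnpla2 -1.13, Ppp1r3g -5.82, Tacc2 -2.64 and Zbtb16 -1.81. It was above 0 for Akr1c6 2.10, Apol7a 1.72, Ccng1 0.77, Cyp2g1 3.31, Cyp2r1 1.99, Cyp51 1.75, Cyp7a1 3.57, Dnph1 1.82, Fabp5 2.08, Fdft1 1.25, Gbp3 1.66, Gbp7 1.55, Gins1 2.19, Hsd3b3 1.81, Ifih1 1.02, Igfals 0.80, Igtp 1.82, Lgr5 3.40, Mcm4 2.20, Mmab 1.60, Msmo1 1.54, Mvk 2.21, Neb 1.77, Nuak2 1.78, Phka2 1.14, Rdh11 1.03, Rnf43 1.31, S1pr1 0.96 and Tlr3 0.97. Without both fasted knockout replicates 1 and 2, limma called 0 of these 55 differences (adjusted p 0.065 to 0.144), and all 55 kept their sign. In that fit 1 fasted knockout array remains and is assumed to vary like the other groups. The 55 were picked with all the arrays of that fit, so their kept signs are not a separate test. Leaving out a single fed knockout array left 13 or 2 called differences among all genes, against 294 with all arrays.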

How the results depend on the processing

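The count of called genes was within 1.5 times of 2990 under other scalings, filters, probe set rules, moderation, array weights, wild type alone and the fit without fasted knockout replicates 1 and 2. Adding the clock score to the model gave 502 (196 higher, 306 lower). Leaving out 1 array gave 1326 to 3062 in all, 541 to 1215 higher and 785 to 1847 lower. Centring on the tested genes, added after seeing the data, gave 1738 higher and 1320 lower. The interaction count of 294 was 4 with no filter, 501 with the 70th percentile filter, 21 with the clock covariate, 520 with trend and robust moderation, 0 by limma without fasted knockout replicates 1 and 2 (2561 at an unadjusted p under 0.05, with 1 array left in that group), and 2 to 360 with 1 array left out. The cause was not tested.

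With the replicate number as a block, 2240 genes were called (825 higher, 1415 lower), and the interaction count was 137. Deviations of same-numbered samples correlated between -0.173 and 0.105. In a group of 2 arrays the deviations mirror each other, so these values are not independent. Whether same-numbered samples share a day or a batch was not tested. With the clock covariate the sign turned for Npas2 (-0.27), Dbp (0.24), Arntl (-1.74, adjusted p = 0.0239), Clock (-0.32), Per3 (0.27) and Tef (0.32), all genes of the score. Hlf was -0.00832 without fed replicate 1 and at most 0.302, without fed replicate 2. Among the genes named, wide errors were found at more than 1 level. Examples are Cdkn1a (SE 1.32, fed mean 5.29 on the log2 scale) and Dbp (SE 0.96, fed mean 9.54).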
